A study of Mus musculus with 7 samples.

Results

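The paired immunoglobulin-like receptors of the mouse, with the related gp49 and Lilr receptors, were followed across 7 RNA-seq libraries of soft tissue, muscle and soft callus, taken beside a hole drilled into the mandible. The rows chosen were those of the gene count table named Pirb, or with a name starting Pira or Lilr, with at least 10 counts in all libraries together. That gave 10 rows out of 49164 gene rows with counts: Pirb, 5 Pira rows (Pira1, Pira2, Pira12, Pira13 and Pira2-ps1) and 4 Lilr rows (Lilra5, Lilra6, Lilrb4a and Lilrb4b). Just inside the minimum stood Pira2-ps1 with 17 counts, and just outside it Pira2-ps2 with 1 count, in WT replicate 3. The members were thus chosen by their names and their summed counts, so the order of levels given here is a description with no test. That choice was made with earlier results of these data known.

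The libraries came from IL17KO mice (genotype Il17af-/-, 3 libraries) and from their WT littermates (4 libraries). In every mouse a hole of 1.5 mm had been drilled into the mandible, the mice were kept under SPF conditions, and the tissue was taken on day 5. No source used here gives their age, sex or strain, or says whether libraries are separate animals, so the spread behind each p-value may be technical. The title concerns gamma-delta T cells that make IL-17 and hinder the healing of the mandible, and the comparison asks how tissue of mice without IL-17A and IL-17F differs from that of WT mice.

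These receptors sit on the surface of myeloid cells, B cells, mast cells and some other leukocytes and come in opposing pairs. Pirb encodes PIR-B, an inhibitory receptor for MHC class I molecules whose tail carries tyrosine motifs (ITIMs) that recruit the phosphatases SHP-1 and SHP-2. The Pira genes encode PIR-A proteins, activating receptors with a nearly identical outer part and a short tail, which signal through the Fc receptor gamma chain (Fcer1g) and the kinase Syk. In mice, PIR-A and the related receptor OSCAR give co-stimulatory signals through the gamma chain to osteoclast precursors. Lilrb4a encodes gp49B, an inhibitory receptor that binds the integrin alphavbeta3, and Lilrb4b encodes gp49A, its close relative without ITIMs.

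The coding sequences show how little separates these genes. In transcripts of the GENCODE annotation for GRCm38, Pira1 and Pira2 differed at 17 of 2043 aligned coding bases, an identity of 99.2%. Pira1 and Pirb differed at 128 of 2031 bases, an identity of 93.7%. The 60-base window below, bases 281 to 340 of the Pira1 coding sequence, holds 6 of the 17 differences and is shown because only reads over such places can tell the genes apart. Capitals in Pira1 mark bases that differ from Pira2, and capitals in the other genes mark bases that differ from Pira1.
Pira1: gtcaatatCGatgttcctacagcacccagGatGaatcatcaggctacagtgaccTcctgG
Pira2: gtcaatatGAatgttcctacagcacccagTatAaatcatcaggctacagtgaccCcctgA
Pirb: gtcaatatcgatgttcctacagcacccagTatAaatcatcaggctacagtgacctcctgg
Pira12: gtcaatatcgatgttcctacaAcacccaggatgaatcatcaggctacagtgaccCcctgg
Pira13: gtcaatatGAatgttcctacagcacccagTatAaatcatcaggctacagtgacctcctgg
Pira13 carries the Pira2 letters at 4 of the 6 places, while Pirb differs from Pira1 at 2 of them. A second window shows the opposite case, a stretch of 60 bases that is identical in Pira1, Pira2, Pira12, Pira13, Pirb and Lilra6 and lies at bases 1708 to 1767 of the Pira1 coding sequence.
Shared stretch: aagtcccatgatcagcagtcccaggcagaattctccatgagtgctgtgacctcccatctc

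The sequence around the start site was alike as well. RefSeq promoter windows on GRCm38.p6, from 250 bases before to 50 after the start, were found for 8 of the 10 rows. Those of Pira1 (chr7:3739868-3740167, minus strand) and Pirb (chr7:3720333-3720632, minus strand) differed at 8 of 300 bases, which are in capitals. They are printed because genes with very different levels start here with almost the same letters.
Pira1 promoter: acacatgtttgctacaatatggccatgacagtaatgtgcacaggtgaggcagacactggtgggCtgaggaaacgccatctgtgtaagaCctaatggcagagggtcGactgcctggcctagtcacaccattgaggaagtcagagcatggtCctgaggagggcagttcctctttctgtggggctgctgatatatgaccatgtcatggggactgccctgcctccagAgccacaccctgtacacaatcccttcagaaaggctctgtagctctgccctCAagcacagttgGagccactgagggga
Pirb promoter: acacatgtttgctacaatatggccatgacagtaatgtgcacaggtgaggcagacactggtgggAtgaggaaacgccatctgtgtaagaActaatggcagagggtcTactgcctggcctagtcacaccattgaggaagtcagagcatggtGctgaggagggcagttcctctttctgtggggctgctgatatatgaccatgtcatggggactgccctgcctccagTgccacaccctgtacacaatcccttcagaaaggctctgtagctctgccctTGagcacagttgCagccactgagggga
The window of Pira2 (chr7:3845002-3845301, minus strand) starts 28 bases further on and had 0 differences from that of Pira1 in the 272 bases they share. The octamer GAGGAAGT, searched on both strands and the kind of motif that PU.1 and other ETS factors of myeloid cells bind, occurred in 6 of the 8 windows (75%), all but those of Lilrb4b and Lilra5. It occurred in 3.20% of all 32851 promoter windows. It began 120 bases before the start in both Pira1 and Pirb. This match describes the letters of the windows. The windows of all 6 genes with the match are near copies. Laid on that of Pira1 at the best offset, those of Pirb, Pira2, Pira12, Lilra6 and Pira13 were 94.6% to 100% identical over 237 to 300 bases. The 6 matches are therefore not separate observations.

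Because of this likeness, a read can often not be placed on 1 gene. Of all stretches of 50 bases in the Pira2 transcript, 94.0% also occurred in another gene, and in Pira1 91.3% did, which leaves 297 positions of its own in Pira1 and 206 in Pira2. Their main partner was each other, at 83.7% of stretches. The shares were 71.2% for Pira12, 57.9% for Pira13, 56.8% for Pira2-ps1, 37.3% for Pirb, 28.4% for Lilra6, 24.3% for Lilrb4b and 0% for Lilra5. Lilrb4a stood at 100%, since Gm49339, another gene of that annotation, contains its whole transcript, while 27.8% of Lilrb4a stretches occurred in Lilrb4b. Gm49339 had 0 counts in all 7 libraries. No source used here gives the read length or the treatment of reads with several matches, so each count below is uncertain to the extent of these shares, most of all for Pira1 and Pira2.

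**Figure D1:**
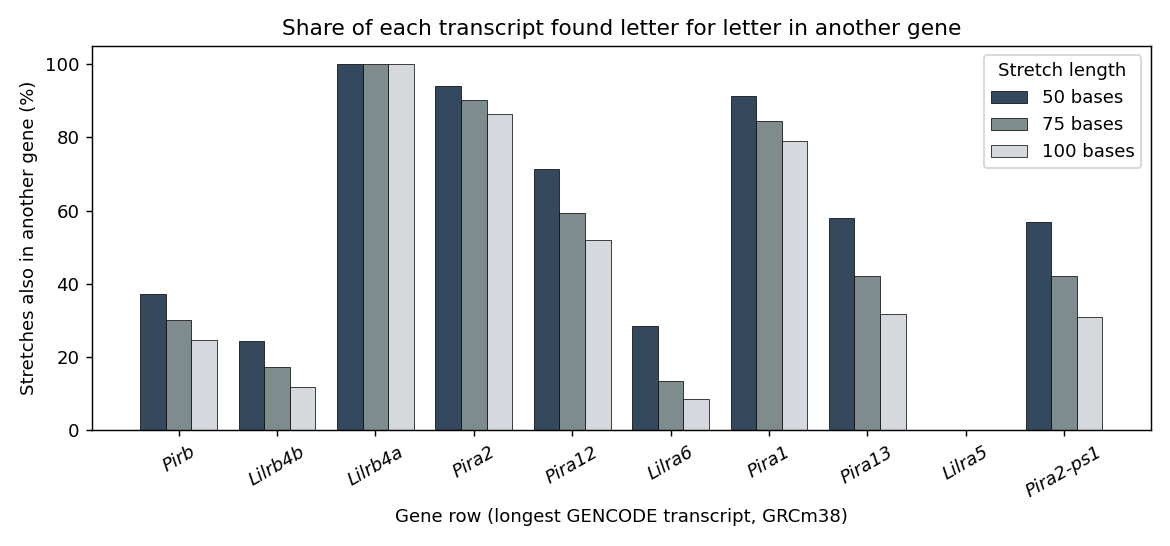
Share of stretches of 50, 75 and 100 bases (percent, bars) in the longest transcript of each row that also occur letter for letter in another gene. Lilrb4a, Pira2 and Pira1 have the highest shares, at 100%, 94.0% and 91.3% for 50 bases, and Lilra5 has 0%. The whole Lilrb4a transcript is contained in Gm49339, which has 0 counts, and 27.8% of its 50-base stretches occur in Lilrb4b.

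Total counts ran from 18539904 to 26271176 per library, and 15399 genes passed the filter on low counts and were tested. Levels are given as CPM, the count of a row relative to the TMM-scaled total of its library, and 3 counts, used as the detection floor, correspond to 0.111 to 0.162 CPM. IL17KO replicate 3 and WT replicate 3 stood apart, at the ends of the first principal component (50.1% of the variance). Markers of the labelled muscle were abundant. They summed to 18743 to 66648 CPM in IL17KO and 9143 to 33271 CPM in WT, and without those 2 libraries to 18743 to 31141 CPM in IL17KO and 24616 to 33271 CPM in WT. Monocyte and macrophage markers summed to 3935 to 4173 CPM in IL17KO and 2904 to 4096 CPM in WT. Most of that sum was Lyz2 alone, at 3011 ± 124 CPM in IL17KO and 2360 ± 431 CPM in WT (SD). In bulk tissue, fewer cells of a type and less RNA per cell cannot be told apart.

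Per length of transcript, the gp49 genes and Pirb led. Over all 7 libraries Lilrb4b had 33.9 ± 5.65 CPM per kilobase (SD), Pirb 20.9 ± 2.53 and Lilrb4a 10.9 ± 1.82, and no library of one overlapped a library of the next. Then followed Pira12 at 1.29 ± 0.466 CPM per kilobase, Lilra6 at 1.08 ± 0.359, Pira2 at 0.901 ± 0.230, Pira1 at 0.510 ± 0.284 and Pira13 at 0.425 ± 0.108, each overlapping its neighbour in this order. The place of Pira1 differed between the groups. In IL17KO it had 0.210 ± 0.0266 CPM per kilobase, below Pira13 at 0.512 ± 0.121, and in WT it had 0.736 ± 0.0558, above Pira13 at 0.360 ± 0.0178. Lilra5 and Pira2-ps1 were lowest, at 0.0979 ± 0.0598 and 0.0568 ± 0.0213 CPM per kilobase. The order within the Pira genes depends on the length used. A second scale divides the whole count of a row by its positions whose 50-base stretch is in no other gene, whichever positions the reads covered. Lilrb4a has 0 such positions and so no value on it. Of the other rows, Lilrb4b at 46.1 ± 7.68 CPM per kilobase and Pirb at 33.7 ± 4.09 led over all libraries, and Pira2 followed at 15.1 ± 3.87. On that scale Pira12 had 5.31 ± 0.642 CPM in IL17KO and 4.06 ± 2.08 CPM in WT, above Pira1 in IL17KO (2.45 ± 0.310) and below it in WT (8.57 ± 0.650).

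**Figure D2:**
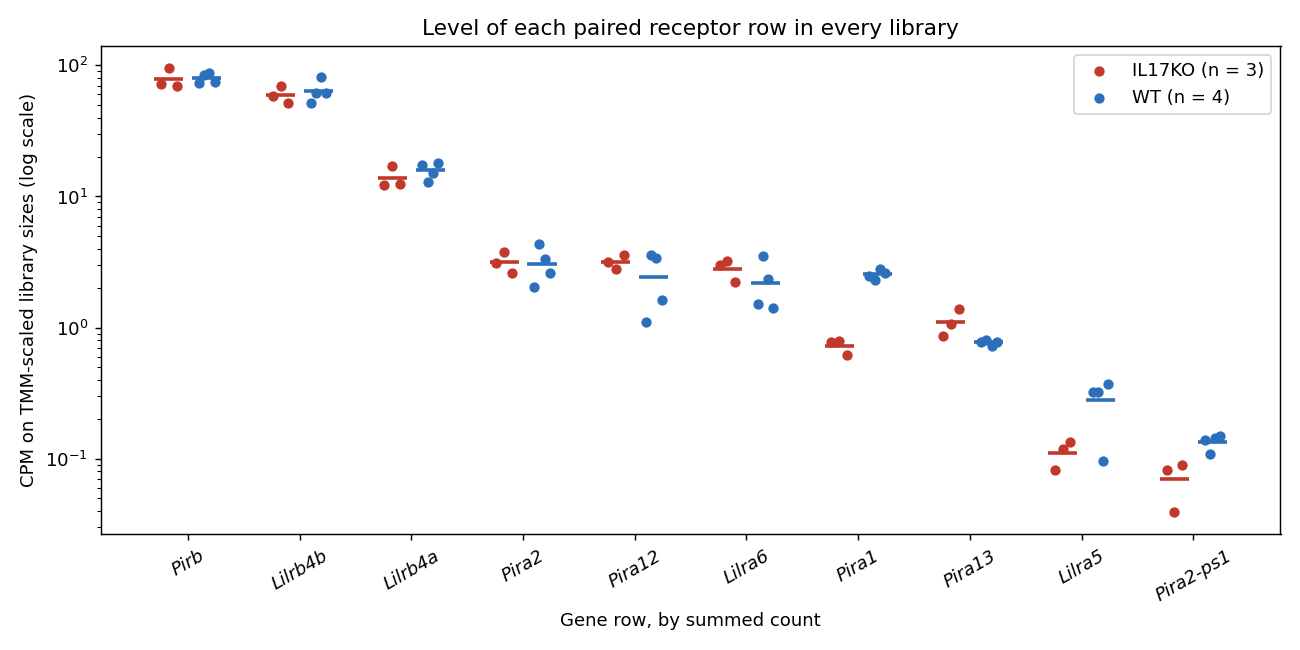
Level of each row in every library (CPM, log scale; points are libraries, lines are group means, IL17KO left of WT). The 3 IL17KO points of Pira1 lie between 0.621 and 0.784 CPM, below all 4 WT points at 2.32 to 2.78 CPM, while the groups overlap for Pirb, Lilrb4a and Lilrb4b.

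Between the groups, 1 of the 8 tested rows passed the test. Pira1 was lower in IL17KO tissue, at about 0.286 of its WT level, while the inhibitory receptors Pirb and Lilrb4a, the gp49A gene Lilrb4b and the activating Pira2, Pira12, Pira13 and Lilra6 did not pass. The test was edgeR's quasi-likelihood test with a Benjamini-Hochberg adjusted p under 0.05 over all 15399 genes, which called 0.156% of them, 0.0779% as lower and 0.0779% as higher. By edgeR 1 of the 8 rows had an unadjusted p under 0.05, against 3.04% of all tested genes. Of the 8 rows 4 had negative and 4 positive fold changes, with a median log2 fold change of 0.02, against 0.00 over all tested genes, of which 49.4% were negative.

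Pira1 (ENSMUSG00000081665, chromosome 7, a polymorphic pseudogene in the GRCm38 annotation, there named Gm15922) had 19, 20 and 14 counts in IL17KO replicates 1 to 3 and 54, 43, 58 and 70 in WT replicates 1 to 4. These were 0.777, 0.784 and 0.621 CPM in IL17KO and 2.48, 2.32, 2.78 and 2.60 CPM in WT. Every IL17KO library was below every WT library, a separation that 3.89% of all tested genes showed in either direction. The mean was 0.727 ± 0.0920 CPM in IL17KO and 2.55 ± 0.193 CPM in WT (SD, n = 3 and 4). The log2 fold change was −1.80 ± 0.21 (SE, edgeR adjusted p = 0.0177), the 14th smallest p of all tested genes. The exact two-sided permutation test on the CPM gave p = 0.0286, the smallest that 7 libraries in groups of 3 and 4 allow. By the same test Pira13, higher in IL17KO, and Pira2-ps1, lower in IL17KO at or near the floor, had this p too.

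The call of Pira1 changed as libraries were left out, more than its size. Without 1 library at a time the log2 fold change of Pira1 stayed between −1.86 and −1.71, but the edgeR adjusted p was 0.0375 to 0.145. It was under 0.05 without WT replicate 3 and above 0.05 without each of the other 6 libraries. Without IL17KO replicate 3 and WT replicate 3 together the log2 fold change was −1.66 ± 0.29 (edgeR adjusted p = 0.0542). DESeq2, which called 0.364% of all tested genes, and limma voom, which called 0.416%, each called Pira1 alone among the 8 rows, as lower, with adjusted p = 1.73e-06 and 0.0015.

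**Figure D3:**
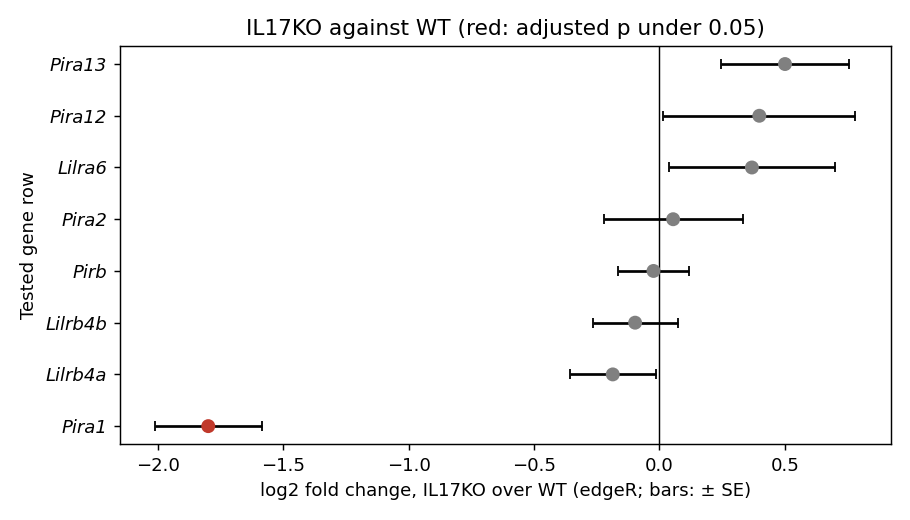
log2 fold change of each tested row, IL17KO over WT, by edgeR (points; bars are ± SE; red marks an adjusted p under 0.05). Pira1 alone is red, at −1.80, and the other 7 rows lie between −0.19 and 0.50.

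The nearest copy, Pira2 (ENSMUSG00000089942, chromosome 7), an activating receptor gene, did not follow. It had 76, 97 and 59 counts in IL17KO and 44, 81, 69 and 70 in WT. In CPM these were 3.11, 3.80 and 2.62 in IL17KO and 2.02, 4.38, 3.31 and 2.60 in WT, so that the groups overlapped, with the lowest and the highest library both in WT. The log2 fold change was 0.05 ± 0.28 (SE, edgeR adjusted p = 0.995).

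As reads of these 2 genes may be split between them, their sum and their ratio were looked at too. Pira1 and Pira2 together had 3.89, 4.58 and 3.24 CPM in IL17KO and 4.51, 6.70, 6.09 and 5.19 CPM in WT. IL17KO replicate 2 lay above WT replicate 1, so that the sums overlapped, and the log2 ratio of the means was −0.53. Within the pair, Pira1 took 20% of the counts in IL17KO replicate 1 (19 of 95, 95% Wilson interval 13.2 to 29.1%), 17.1% in replicate 2 (20 of 117, 11.3 to 24.9%) and 19.2% in replicate 3 (14 of 73, 11.8 to 29.7%). In WT it took 55.1% in replicate 1 (54 of 98, 45.2 to 64.6%), 34.7% in replicate 2 (43 of 124, 26.9 to 43.4%), 45.7% in replicate 3 (58 of 127, 37.3 to 54.3%) and 50% in replicate 4 (70 of 140, 41.8 to 58.2%). The mean share was 18.8 ± 1.50% in IL17KO and 46.4 ± 8.69% in WT (SD), with no overlap. The intervals of IL17KO replicates 1 and 3 reach above the lower bound of WT replicate 2, and they cover counting error only. With the whole count of each row divided by its own 50-base stretches, Pira1 had 2.45 ± 0.310 CPM per kilobase in IL17KO and 8.57 ± 0.650 in WT. On that scale Pira2 had 15.4 ± 2.89 CPM in IL17KO and 14.9 ± 4.92 CPM in WT. Counts by gene do not tell which stretches the reads covered.

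**Figure D4:**
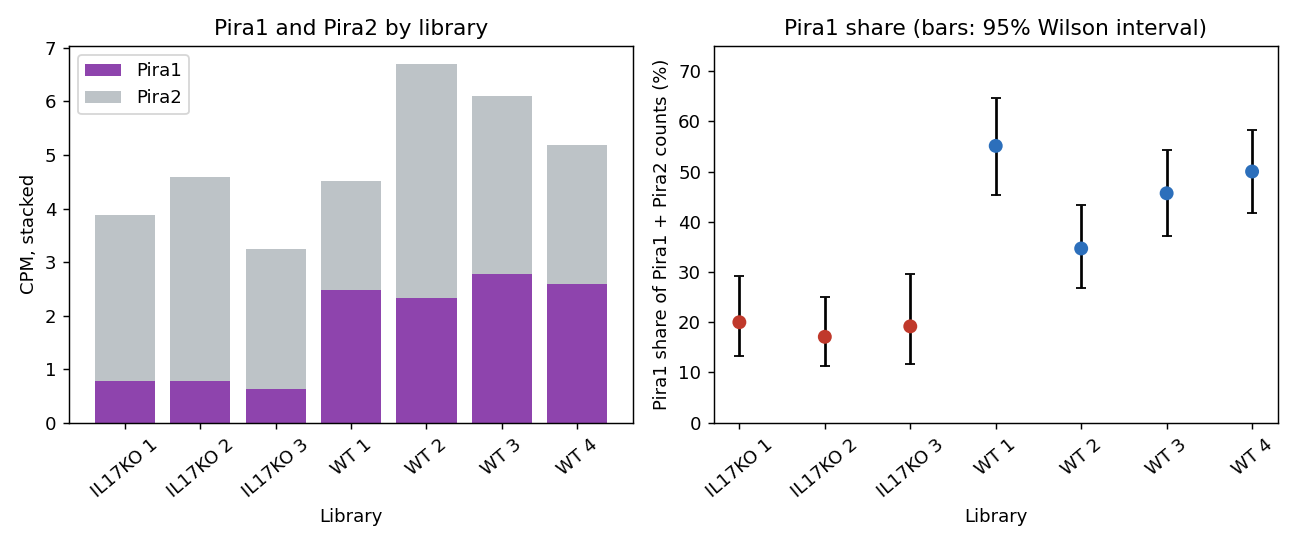
Left, CPM of Pira1 and Pira2 stacked for each library. Right, Pira1 as a percent of the counts of both (points; bars are 95% Wilson intervals), which lies between 17.1% and 20% in the 3 IL17KO libraries and between 34.7% and 55.1% in the 4 WT libraries.

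None of the other Pira rows passed the test in either direction. Pira12 (ENSMUSG00000074417, chromosome 7) had 3.19, 2.78 and 3.55 CPM in IL17KO and 1.10, 3.57, 3.41 and 1.63 CPM in WT. The WT libraries spread more than the group means differed, and the log2 fold change was 0.40 ± 0.38 (SE, edgeR adjusted p = 0.987). Pira13 (ENSMUSG00000074419, chromosome 7) had 0.859, 1.06 and 1.38 CPM in IL17KO and 0.782, 0.811, 0.720 and 0.779 CPM in WT. Its IL17KO libraries were all above its WT libraries, the opposite side from Pira1, but it did not pass (log2 fold change 0.50 ± 0.25, SE, edgeR adjusted p = 0.987), and it rests on 15 to 31 counts per library. Without IL17KO replicate 3, its highest library, the log2 fold change of Pira13 was 0.30 ± 0.29. Pira2-ps1 (ENSMUSG00000080917, chromosome 7), a pseudogene, had 2, 1 and 2 counts in IL17KO and 3, 2, 3 and 4 in WT, at or near the floor, so no fold is given.

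The 5 Pira rows were also summed, with the 1 count of Pira2-ps2 included, which removes any split of counted reads among them. Reads shared with Pirb, Lilra6 or the pseudogenes Gm15931 and Gm10693 may remain outside this sum. So would any reads left uncounted because they match several genes, a setting that is not known here. The level was 8.02, 8.46 and 8.25 CPM in IL17KO and 6.53, 11.2, 10.4 and 7.75 CPM in WT. The IL17KO sums lay within the range of the WT sums, with means of 8.24 ± 0.224 CPM in IL17KO and 8.97 ± 2.19 CPM in WT (SD, n = 3 and 4). Without Pira1 the sum was 7.52 ± 0.242 CPM in IL17KO and 6.42 ± 2.21 CPM in WT. Pira1 made up 8.83 ± 1.15% of the Pira counts in IL17KO and 29.8 ± 7.58% in WT. The Pira rows held 9.59 ± 1.29% of all Pira and Pirb counts in IL17KO and 9.94 ± 1.51% in WT, with overlap between the groups. This share goes by name and is no balance of activating to inhibitory receptors. It includes Pira1, annotated as a polymorphic pseudogene, and the pseudogenes Pira2-ps1 and Pira2-ps2, and it leaves out Lilra6.

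Pirb (ENSMUSG00000058818, chromosome 7), the inhibitory member and the row with the most counts, had 72.4, 95.3 and 69.3 CPM in IL17KO and 73.4, 84.8, 88.1 and 75 CPM in WT. The highest and the lowest library were both in IL17KO. The mean was 79.0 ± 14.2 CPM in IL17KO and 80.3 ± 7.22 CPM in WT (SD), with a log2 fold change of −0.02 ± 0.14 (SE, edgeR adjusted p = 0.995). Its sign changed with either covariate tried, the muscle or the leukocyte level.

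The gp49 genes lie apart on chromosome 10. Lilrb4b (ENSMUSG00000112023, gp49A) had 58.1, 69.5 and 52.0 CPM in IL17KO and 51.4, 61.9, 81.1 and 61.7 CPM in WT, the highest being WT replicate 3. Lilrb4a (ENSMUSG00000112148, gp49B) had 12.3, 17 and 12.4 CPM in IL17KO and 17.2, 12.8, 15.0 and 18.1 CPM in WT. The groups overlapped for both, and the log2 fold changes were −0.10 ± 0.17 for Lilrb4b and −0.19 ± 0.17 for Lilrb4a (SE, edgeR adjusted p = 0.987 for each). Their coding sequences differ at 36 of 910 aligned bases, so reads may be shared here as well. Their sum was 73.8 ± 11.4 CPM in IL17KO and 79.9 ± 11.8 CPM in WT, and Lilrb4a made up 18.8 ± 1.15% of it in IL17KO and 20.1 ± 4.50% in WT.

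The other Lilr rows encode activating-type receptors. Lilra6 (ENSMUSG00000030427, chromosome 7) had 2.99, 3.21 and 2.22 CPM in IL17KO and 1.52, 3.51, 2.35 and 1.41 CPM in WT, with overlap and a log2 fold change of 0.37 ± 0.33 (SE, edgeR adjusted p = 0.987). Lilra5 (ENSMUSG00000070873, chromosome 7), which shares no 50-base stretch with another gene, had 2, 3 and 3 counts in IL17KO and 7, 6, 2 and 10 in WT. It did not pass the filter. In a fit with no filter its log2 fold change was −1.30 ± 0.63 (SE, edgeR adjusted p = 0.865), and that value rests on counts at the floor in IL17KO.

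The genes with which these receptors work were compared by lists. Over all tested genes 49.4% of fold changes were negative, and 3.04% had an unadjusted p under 0.05 by edgeR. Of the 12 adaptors and kinases, all 12 were tested and 0 passed in either direction by edgeR (0 at an unadjusted p under 0.05), though all 12 fold changes were negative (median −0.20). Lcp2, the adaptor SLP-76, was at 31.6 ± 9.19 CPM in IL17KO and 44.7 ± 11.2 CPM in WT. Lyn, the kinase that phosphorylates the ITIMs of PIR-B, had a log2 fold change of −0.22 ± 0.15, and Src, a tyrosine kinase, one of −0.35 ± 0.26. Of 7 phosphatases and inhibitory adaptors that ITIMs use, 0 passed by edgeR (0 at an unadjusted p under 0.05, 5 negative, median −0.10). Ptpn6 (SHP-1) was at 82.3 ± 16.5 CPM in IL17KO and 90.8 ± 18.0 CPM in WT, and Ptpn11 (SHP-2) at 142.0 ± 7.10 CPM in IL17KO and 133.6 ± 10.9 CPM in WT. Csk, an inhibitor of Src kinases, and Dok1, a docking protein, had log2 fold changes of −0.19 ± 0.18 and −0.17 ± 0.23.

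Of 14 reported ligands of PIR-B and gp49B, 12 were tested and 0 passed by edgeR (0 at an unadjusted p under 0.05, 10 negative, median −0.12). B2m, the light chain of MHC class I, was at 548.6 ± 89.9 CPM in IL17KO and 662.3 ± 90.8 CPM in WT. H2-K1, a class I heavy chain, was at 246.9 ± 25.1 CPM in IL17KO and 283.0 ± 44.5 CPM in WT. Angptl4, an angiopoietin-like protein, and Itgav, the integrin alphav chain, had log2 fold changes of −0.56 ± 0.34 and −0.27 ± 0.17.

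Other receptors of myeloid cells that signal through such motifs gave values mostly below 0. Of 40 listed 37 were tested, and 32 were negative with a median of −0.27, against 49.4% negative over all tested genes. By edgeR 0 passed and 9 had an unadjusted p under 0.05, against 3.04% of all tested genes. The CPM of the groups did not overlap for 4 of the 37, against 3.89% of all tested genes. Pilrb2, an activating paired receptor of another family, was at 1.23 ± 0.362 CPM in IL17KO and 2.97 ± 0.712 CPM in WT, with no overlap (edgeR adjusted p = 0.436). DESeq2, which called 0.364% of all tested genes, called Pilrb2 lower (adjusted p = 0.0202). Limma voom, which called 0.416%, called it lower with Siglece and Fcgr4 (adjusted p = 0.0174, 0.0256 and 0.0388). Siglece, an inhibitory sialic acid receptor, was at 1.44 ± 0.688 CPM in IL17KO and 3.46 ± 0.754 CPM in WT. Fcgr4, an activating Fc receptor that uses the gamma chain, was at 7.93 ± 1.22 CPM in IL17KO and 13.9 ± 3.06 CPM in WT. For Siglece and Fcgr4 the groups did not overlap either. Pilrb1 had a log2 fold change of −1.21 ± 0.40. Limma voom gave IL17KO replicate 1 a weight of 5.31, against 0.624 and 0.487 for replicates 2 and 3, so its calls lean on that library.

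Markers of the cells that carry these receptors were set beside Pira1. All 8 leukocyte markers had negative fold changes (median −0.29, 0 passed by edgeR, 1 at an unadjusted p under 0.05) and summed to 796.6 to 1067 CPM in IL17KO and 828.8 to 1387 CPM in WT. With the leukocyte level as a covariate the log2 fold change of Pira1 was −1.74 (edgeR adjusted p = 0.0476), and with the muscle level it was −1.73 (edgeR adjusted p = 0.00795). Of 10 neutrophil markers 6 were tested and all 6 were negative (median −1.02, 0 passed by edgeR, 3 at an unadjusted p under 0.05), with sums of 50.2 to 107.2 CPM in IL17KO and 82.0 to 315.9 CPM in WT. The upper WT value is WT replicate 3, where Mmp9 alone had 214.9 CPM, and without it the highest WT sum was 139.6 CPM. B cell markers summed to 1.15 to 2.16 CPM in IL17KO and 2.59 to 3.69 CPM in WT, with no overlap (3 of 6 tested, median −0.67, 0 passed by edgeR and 0 at an unadjusted p under 0.05). The part of neutrophils and B cells in the Pira1 result was not tested.

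The sums of the other cell types overlapped between the groups. Dendritic cell markers summed to 52.5 to 64.6 CPM in IL17KO and 38.5 to 86.5 CPM in WT, mast cell markers to 15.0 to 17.7 CPM in IL17KO and 11.8 to 16.4 CPM in WT, and T cell markers to 8.97 to 9.58 CPM in IL17KO and 7.68 to 11.4 CPM in WT. Of the mast cell markers 5 were tested and 4 were positive (median 0.80, 0 passed by edgeR, 1 at an unadjusted p under 0.05). That was Mcpt4, a mast cell protease, at 1.01 ± 0.667 CPM in IL17KO and 0.316 ± 0.159 CPM in WT with no overlap, while Kit, which holds most of the sum, was at 11.4 ± 3.98 CPM in IL17KO and 11.5 ± 1.18 CPM in WT. Osteoclast markers summed to 236.9 to 264.2 CPM in IL17KO and 200.2 to 751.3 CPM in WT, or to at most 409.4 CPM in WT without WT replicate 3. All 7 were tested and negative (median −0.68, 0 passed by edgeR, 1 at an unadjusted p under 0.05, Mmp9, which is also on the neutrophil list). Of the dendritic cell markers 7 were tested (3 negative, median 0.04), and of the T cell markers 4 (2 negative, median −0.11), with 0 passing by edgeR and 0 at an unadjusted p under 0.05 in either list. Of the 10 monocyte and macrophage markers, whose sum is given above, all were tested, 7 negative and 3 positive. Their median was −0.23, with 0 passing by edgeR and 0 at an unadjusted p under 0.05. Lyz2, which holds most of that sum, was among the positive ones (log2 fold change 0.35). Its IL17KO libraries all lay above its WT libraries in CPM, a separation that 3.89% of all tested genes showed in either direction. The part of these cells, monocytes and macrophages included, in the Pira1 result was not tested. No marker of any of these lists was at 0 counts in all libraries.

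The genes whose profile over the 7 libraries was most like that of Pira1, by the root-mean-square difference of centred log2 CPM, were Nxpe4 (0.135), Thy1 (0.250) and Gm48443 (0.301). All 3 lie on chromosome 9, while Pira1 lies on chromosome 7. Nxpe4, of a neurexophilin-related family, was at 2.83 ± 0.481 CPM in IL17KO and 9.95 ± 0.776 CPM in WT. Thy1, a surface marker of T cells and many fibroblasts, was at 93.1 ± 19.3 CPM in IL17KO and 243.3 ± 43.8 CPM in WT, and Gm48443 at 0.444 ± 0.0829 CPM in IL17KO and 1.29 ± 0.147 CPM in WT. For Pirb the nearest were Grk5, a receptor kinase (0.0387), Pms2, a mismatch repair gene (0.0489), and Haus7, a spindle gene (0.0526), with small changes from library to library. These genes were picked for their likeness, which is therefore a description.

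**Figure D5:**
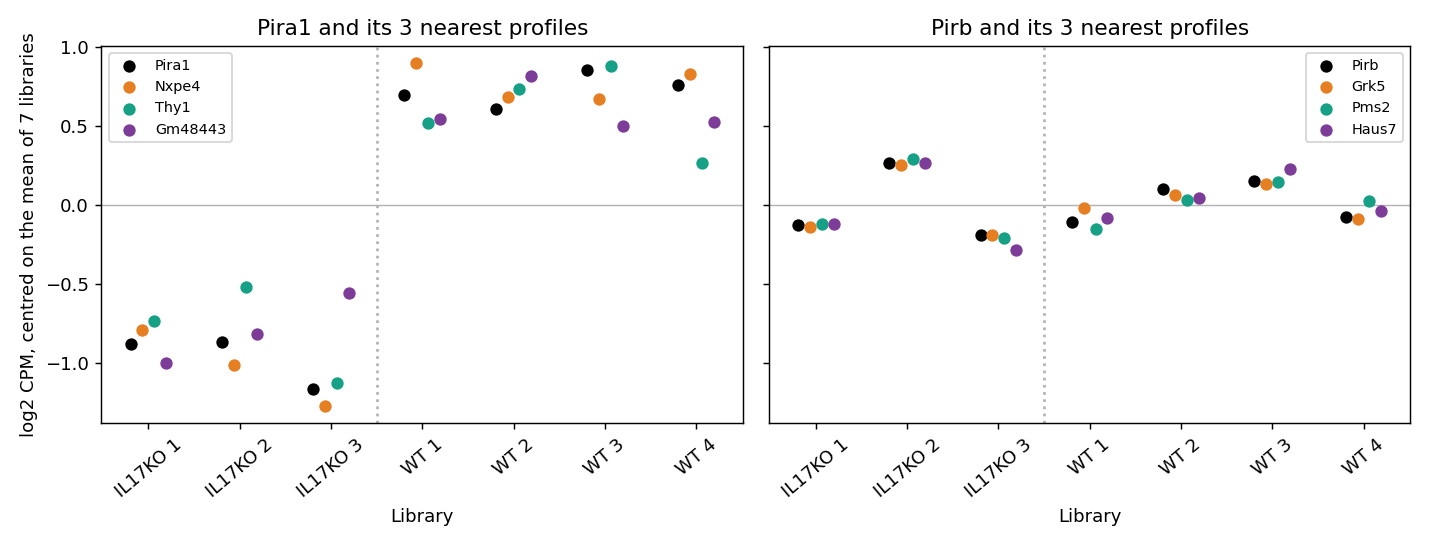
log2 CPM in each library, centred on the mean of the 7 libraries, for Pira1 (left) and Pirb (right) with the 3 genes of most similar profile. Pira1 and its 3 nearest genes lie below 0 in all IL17KO libraries and above 0 in all WT libraries, while Pirb and its nearest genes cross 0 in both groups.

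The place of Pira1 on the chromosome was looked at as well. Of the 20 tested genes nearest to the receptor cluster on chromosome 7, 10 on either side, 0 passed by edgeR and 2 had an unadjusted p under 0.05. Those were Lair1, an inhibitory collagen receptor, with a log2 fold change of −0.35 ± 0.12, and Tmc4, a transmembrane channel-like gene, with −0.91 ± 0.37, both named after their values were seen. Oscar, the gene of the other gamma chain receptor of osteoclast precursors, lies among the 20 and had a log2 fold change of −1.74 ± 1.06. Around the gp49 genes on chromosome 10, 0 of 20 passed by edgeR and 0 had an unadjusted p under 0.05.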

How the data were processed

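Polyadenylated RNA of 7 mouse tissue samples was sequenced from stranded libraries, per the labels. The authors deposited whole-number read counts by gene, and beside them a normalized signal, found here to be those counts over a size factor of each library. The submitters' processing notes name TopHat, HTSeq, DESeq2, cutadapt, FastQC and bcl2fastq, and the build GRCm39. No source used here gives their versions or settings, the use of strand included. Of 55414 gene rows 6250 are blank in every column.

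The test was edgeR's (version 4.0.16 in R 4.3.3; quasi-likelihood, two-sided, TMM, filterByExpr, robust), with Benjamini-Hochberg adjustment over 15399 genes. The standard error is the log2 fold change divided by the root of the F statistic. The procedure was tested on simulated counts, with no outcome given here. Those counts were drawn for each gene on its own, so reads shared between near copies were not modelled. Alternatives were DESeq2 1.42.0, limma 3.58.1 (voom with quality weights, and trend on log2 of the deposited normalized signal plus 1), other scalings and filters, covariates, a replicate block and left-out libraries. Shared sequence was found among GRCm38 transcripts, with BLAST 2.17.0 (90% identity over 80% of the length) and MAFFT 7.526, and no gene coordinates of that build are given. Promoter windows are RefSeq's (GRCm38.p6).

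The genes and lists were chosen with earlier results of these data known. Named were every receptor row, up to 4 tested genes per pathway list by smallest p, near copies, and the 3 nearest profiles of Pirb and of each row that passed. Of the genes this rule takes, 1 is not reported here. Within a group, every pair of libraries differed beyond counting noise (mean chi-square per gene 23.1 to 238.9), so none was a repeat deposit. Intervals and floors cover counting error only.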

Additional observations from a re-analysis of the deposited data

How the results depend on the processing

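Pira1 was lower in all 18 alternatives, with log2 fold changes of −1.90 to −1.66, and passed in 10 of them. The count of receptor rows passing was 1 in the main analysis, 0 with the replicate block, 0 without IL17KO replicate 3 and WT replicate 3, and 0 to 1 with 1 library left out. Of all tested genes 24 passed in the main analysis, 56 with DESeq2, 64 with limma voom, 42 with no filter and 2 with the replicate block, with 8 to 21 when 1 library was left out and 30 without IL17KO replicate 3 and WT replicate 3. For the other ITAM and ITIM receptors the count was 0 in the main analysis, 1 with DESeq2 and 3 with limma voom.

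The rows that changed sign passed in no alternative. With the muscle level as covariate the log2 fold change was 0.073 for Pirb and 0.058 for Lilrb4b, and with the leukocyte level it was 0.087 and 0.11. Leaving out IL17KO replicate 3 and WT replicate 3 together gave 0.11 and 0.13. With 1 library left out it ran from −0.18 to 0.05 for Pirb, from −0.22 to 0.03 for Lilrb4b and from −0.10 to 0.26 for Pira2. Of the rows that kept their sign, Pira12 ran from 0.16 (without WT replicate 1) to 0.63 (without WT replicate 2), Lilra6 from 0.20 (without WT replicate 4) to 0.67 (without WT replicate 2), Pira13 from 0.30 (without IL17KO replicate 3) to 0.65 (without IL17KO replicate 1) and Lilrb4a from −0.36 (without IL17KO replicate 2) to −0.11 (without IL17KO replicate 1). Scaling by library totals alone gave Pira2 −0.035 and moved the median of all genes to −0.10, so that Pira2 lay above that median. The cause of these changes was not tested.

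Replicate numbers 1 to 3 are shared by the groups in the sample titles. The library names carry other numbers, 1, 2 and 5 in IL17KO and 3 to 6 in WT, of which 5 alone is shared. By title, the deviations of same-numbered libraries from their group means had correlations of 0.14, −0.30 and −0.56. IL17KO replicate 1 correlated best with WT replicate 1, replicate 2 with WT replicate 3 (0.61) and replicate 3 with WT replicate 4 (0.54). With 3 and 4 libraries these correlations cannot decide whether same-numbered libraries share more than a number. With the replicate block Pira1 had −1.79 ± 0.30 (edgeR adjusted p = 0.757). Fewer libraries or degrees of freedom are part of these alternatives by construction. At 14 to 70 counts per library, Pira1 is limited by counting error too.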

Other observations

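Near copies outside the named rows were counted as well. Gm15931, annotated as an unprocessed pseudogene and at least 90% identical to Pira12 over at least 80% of its length, had 15, 19 and 28 counts in IL17KO and 9, 12, 13 and 12 in WT. The groups did not separate in CPM, and the log2 fold change was 0.70 ± 0.34 (SE, edgeR adjusted p = 0.987). Gm10693, annotated as a transcribed unprocessed pseudogene, had 1, 7 and 3 counts in IL17KO and 1, 5, 1 and 0 in WT. Pira2-ps2 had 0 counts in IL17KO and 1 in WT.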
